A study of Mus musculus with 66 samples.

Results

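The integrated stress and endoplasmic reticulum (ER) stress genes described here are 39 genes of 2 connected responses to stress, measured in mouse embryonic stem (ES) cells with a deletion at Praf2. They were taken from a set list of symbols, each matched to its Ensembl gene identifier, and make up 39 of the 55487 gene identifiers of the deposited tables. By role, 9 are transcription factors and feedback genes of the integrated stress response, 8 are enzymes of amino acid synthesis and one-carbon metabolism, and 5 are transporters or a receptor. Another 4 are stress sensors, 10 are the factor Xbp1 with chaperones and folding factors of the ER, and 3 act in ER-associated degradation. The first 3 groups are called the ATF4 branch here (22 genes) and the last 2 groups the unfolded protein response (UPR) branch (13 genes), with the 4 sensors in neither.

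In the integrated stress response, kinases that phosphorylate the initiation factor eIF2 lower general translation, while the transcription factor ATF4 is translated more and switches on genes for amino acid synthesis, amino acid uptake and redox balance. PERK responds to misfolded protein in the ER and GCN2 to uncharged tRNA. The ER also signals through IRE1, which splices the Xbp1 transcript, and through ATF6, and both raise chaperones such as BiP and the machinery that clears misfolded protein. In ES cells these pathways meet a high demand for serine, one-carbon units and protein synthesis.

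Total RNA depleted of ribosomal RNA was sequenced from untreated E14 cells, a male mouse ES cell line, with a kit that marks the strand. GDel2 and GDel1 had 2 libraries each, and both carry the genotype label Praf2 G4 deletion. WT, the wildtype E14 cells, had 3 libraries. All groups were cultured with fetal serum, LIF, a GSK inhibitor and a MEK inhibitor, conditions that hold ES cells in a naive state. The labels do not say whether GDel2 and GDel1 are separate clones or whether replicates are separate cultures, so p-values measure only the spread between these libraries, which may be technical. Another 59 samples of the series' 66 are not analysed here.

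The libraries held between 12316853 and 18762704 expected counts, and the 39 genes took between 0.391% and 0.557% of them. Praf2, on chrX:7728571-7731063 of GRCm38.p6, had 13.1 and 14.1 CPM in GDel2, 10.1 and 9.26 CPM in GDel1, and 27.5, 28.8 and 30.6 CPM in WT. CPM are counts scaled to the library size after TMM normalisation. Replicates of GDel1 lay further apart (chi-square per degree of freedom 67.8 over genes) than those of GDel2 (22.3) and WT (4.79 to 7.23). Genes of chromosomes 6 and 8 had median log2 fold changes of 0.51 and 0.44 in GDel2 against WT, and the next highest median was 0.10, on chromosome 11. All 12 ES cell markers looked at passed the filter on low counts, with summed levels of 5364 to 5623 CPM in GDel2, 5841 to 6488 CPM in GDel1 and 6144 to 6200 CPM in WT. Of 8 fibroblast feeder markers, Col3a1, Postn and Dcn had 0 counts in all 7 libraries, and the list summed to at most 3.16 CPM in any library. The 8 primitive endoderm markers summed to 93.7 and 69.0 CPM in GDel2, 71.3 and 97.1 CPM in GDel1, and 109, 115 and 112 CPM in WT, nearly all of it Lama1. In bulk RNA, a change in the share of cells that express a gene and a change in RNA per cell cannot be told apart.

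Elements for which the 2 branches are known were looked for in the start regions of these genes, since the results below are grouped by branch, and those found are shown. Windows of 250 bases before to 50 bases after the annotated start were taken from RefSeq (GRCm38.p6), which held 34 of the 39 genes; Atf6, Hyou1, Manf, Slc7a3 and Slc7a5 are named only. The C/EBP-ATF response element (CARE), which ATF4 binds, was searched on both strands as TGATGNAA. It was present in 9 of the 34 genes (26.5%) and in 4.51% of the 27025 genes of the table. The ER stress response element (ERSE), CCAAT and CCACG with 9 free bases between them, was present in Calr, Creld2, Hsp90b1 and Hspa5, 4 of 34 (11.8%), against 0.137% of all genes. The shorter ERSE-II, ATTGG and CCACG with 1 free base between them, was found in Herpud1 alone among the 34 genes (2.94%), against 0.0444% of all genes. The UPR element TGACGTGG was in none of the 34 genes and in 0.714% of all genes. In all, 13 of the 34 genes held an element in a window. The 34 genes had 38 windows, as some have more than 1 annotated start. The CARE of Vldlr was only in its window at chr19:27216770-27217069.

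Herpud1 is the 1 member with elements of both branches, and Hspa5 encodes BiP, the chaperone that reports on ER load. Their 250 bases before the start follow, 5′ to 3′ on the plus strand, at chr8:94386179-94386428 for Herpud1 and chr2:34771840-34772089 for Hspa5. Capitals mark the CARE (first) and the ERSE-II (second) in Herpud1, and the ERSE in Hspa5.

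Herpud1: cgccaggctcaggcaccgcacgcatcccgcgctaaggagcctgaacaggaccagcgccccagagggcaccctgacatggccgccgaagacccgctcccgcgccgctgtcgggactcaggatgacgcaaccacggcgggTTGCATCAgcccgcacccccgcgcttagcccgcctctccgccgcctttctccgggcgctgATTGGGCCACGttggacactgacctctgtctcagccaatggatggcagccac

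Hspa5: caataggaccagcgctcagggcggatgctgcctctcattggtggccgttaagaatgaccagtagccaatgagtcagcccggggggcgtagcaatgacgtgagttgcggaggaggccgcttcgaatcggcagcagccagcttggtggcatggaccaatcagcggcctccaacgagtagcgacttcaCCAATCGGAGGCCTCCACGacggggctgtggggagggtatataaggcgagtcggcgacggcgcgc

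The next stretches hold the CARE, in capitals, of Asns and Vldlr, which rose in GDel2 against both GDel1 and WT, and of Chac1, which rose in GDel2 against GDel1. Slc7a11, Nupr1 and Pycr1 also have the element. Nupr1 and Pycr1 passed in no contrast of the edgeR fit to all 7 libraries. Plus-strand stretches are Chac1 (chr2:119351023-119351082) and Vldlr (chr19:27216794-27216853). Minus-strand stretches are Asns (chr6:7693210-7693269), Slc7a11 (chr3:50443637-50443696, at an annotated start inside the gene's range), Nupr1 (chr7:126625547-126625606) and Pycr1 (chr11:120643818-120643877).

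Asns: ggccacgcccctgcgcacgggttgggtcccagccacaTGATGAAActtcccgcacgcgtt

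Vldlr: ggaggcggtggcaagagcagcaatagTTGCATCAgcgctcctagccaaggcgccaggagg

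Chac1: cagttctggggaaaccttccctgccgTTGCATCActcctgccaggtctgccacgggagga

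Slc7a11: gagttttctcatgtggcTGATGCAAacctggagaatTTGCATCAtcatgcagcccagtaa

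Nupr1: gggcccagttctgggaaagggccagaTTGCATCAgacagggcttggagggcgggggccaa

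Pycr1: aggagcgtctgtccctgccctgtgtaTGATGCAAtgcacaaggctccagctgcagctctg

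Slc7a11 holds the element on each strand. Atf3 and Trib3 are the other members with a CARE in the window.

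The ERSE of 3 chaperone or folding genes is in capitals in the last set, for Calr (chr8:84847055-84847114, minus strand), Creld2 (chr15:88819499-88819558, plus strand) and Hsp90b1 (chr10:86705520-86705669, minus strand). Hsp90b1 has 2 copies.

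Calr: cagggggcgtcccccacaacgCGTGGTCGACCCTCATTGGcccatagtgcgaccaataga

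Creld2: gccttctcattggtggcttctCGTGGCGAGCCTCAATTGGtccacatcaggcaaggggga

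Hsp90b1: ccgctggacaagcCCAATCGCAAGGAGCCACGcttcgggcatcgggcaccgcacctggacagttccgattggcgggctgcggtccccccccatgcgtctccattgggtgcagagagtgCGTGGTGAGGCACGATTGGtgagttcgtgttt

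A match to these letters is a description of the window and not a measured binding site. Of the 8 members with a CARE that passed the filter on low counts, 3 rose in GDel2 against WT (Asns, Herpud1 and Vldlr). Of the 4 with an ERSE, 1 rose (Calr). Among all 37 tested members 15 rose, and among all genes tested 17.4%. In GDel2 against GDel1, 5 of the 8 with a CARE rose (Asns, Chac1, Herpud1, Slc7a11 and Vldlr), and 1 of the 4 with an ERSE (Calr). There 18 of all 37 tested members rose, and 14.8% of all genes. Slc7a11 passed the filter on low counts through GDel2 alone.

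Levels were first compared between genes as TPM, which are scaled for transcript length. In WT the chaperone Hsp90b1 (292 ± 43.5 TPM, SD, n = 3), the asparagine synthetase gene Asns (212 ± 17.8) and the chaperone Calr (138 ± 18.9) were highest. Atf4 itself stood at 87.2 ± 12.6 TPM in WT, close to Hspa5 at 84.5 ± 5.71 TPM. Ddit3, which encodes the proapoptotic factor CHOP, stood at 2.64 ± 0.419 TPM in WT. The lowest were Vldlr at 0.207 TPM, Cebpb at 0.0933 TPM, Atf3 at 0.0667 TPM and Slc7a11 at 0.0333 TPM. TPM were lower in GDel1 than in WT for most of the genes, as for most genes of the table: the median difference of all genes was -0.30 on the log2(TPM + 1) scale. Comparisons between libraries therefore use CPM after TMM scaling, where the median of all genes was 0.00 in GDel1 against WT, 0.01 in GDel2 against WT and -0.01 in GDel2 against GDel1.

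**Figure D1:**
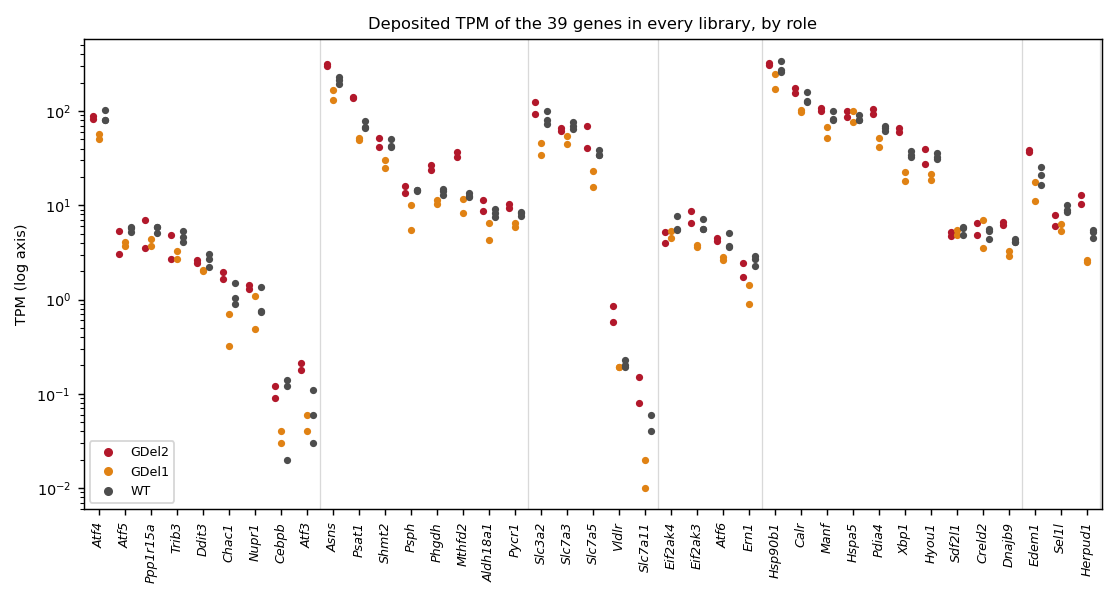
TPM of each of the 39 genes (log axis), ordered within its role by the WT mean, with 1 point for each library of GDel2, GDel1 and WT. Levels span from 0.0333 TPM (Slc7a11) to 292 TPM (Hsp90b1) in WT. The WT replicate 1 value of Slc7a11 is 0 and cannot be drawn on a log axis.

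In GDel2 against WT, 5 of 8 enzymes of amino acid synthesis and one-carbon metabolism rose, as did 3 of 5 transporter and receptor genes and 4 of 10 genes of ER folding. Atf4, Ddit3 and Trib3 did not pass the test. The summed level of the 39 genes was 5418 and 5582 CPM in GDel2, 4260 and 3906 CPM in GDel1, and 4066, 4138 and 3994 CPM in WT. Both GDel2 libraries lay above every other library, and the GDel1 and WT libraries overlapped. Of the 39 genes, 37 passed the filter on low counts. In GDel2 against WT, 15 of the 37 were higher and 1 was lower (adjusted p under 0.05, edgeR quasi-likelihood test, Benjamini-Hochberg over 15421 genes), against 17.4% higher and 15.6% lower among all genes tested. The share of the 37 called in either direction was 43.2%, against 33.1% of all genes. In GDel2 against GDel1, 18 of 37 were higher and 0 lower, against 14.8% and 12.8% of all genes, or 48.6% in either direction against 27.7%. Without Slc7a11, which passed the filter on low counts only through GDel2, where it is high, 17 of 36 were higher. At unadjusted p under 0.05 the same edgeR contrast had 25 of the 37 in either direction, against 6165 of the 15421 genes. Both GDel2 libraries were above all WT libraries for 22 of the 37, against 32.2% of all genes. They were above both GDel1 libraries for 23 of the 37, against 29.9%. Slc7a11 is in both counts. In GDel1 against WT, 0 of 37 were called, against 0.376% of all genes. The 2 comparisons with WT share its 3 libraries, so they are given side by side.

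The median log2 fold change of the 20 tested genes of the ATF4 branch was 0.41 in GDel2 against WT, -0.01 in GDel1 against WT and 0.66 in GDel2 against GDel1. That of the 13 genes of the UPR branch was 0.31 in GDel2 against WT, -0.02 in GDel1 against WT and 0.37 in GDel2 against GDel1. Of the ATF4 branch 8 of 20 rose in GDel2 against WT, and of the UPR branch 6 of 13 rose and 1 fell, where 17.4% of all genes rose and 15.6% fell. On chromosomes 6 and 8, 51.1% of tested genes rose, as did 3 of 3 ATF4 branch members and 4 of 4 UPR branch members. On other chromosomes 14.8% of genes rose. There 5 of 17 ATF4 branch members rose (median log2 fold change 0.33, Slc7a11 included). Of the UPR branch 2 of 9 rose there and 1 fell (median 0.22). Without Slc7a11 the median of the ATF4 branch was 0.35 in GDel2 against WT and 0.63 in GDel2 against GDel1, where 10 of 19 rose, against 14.8% of all genes.

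**Figure D2:**
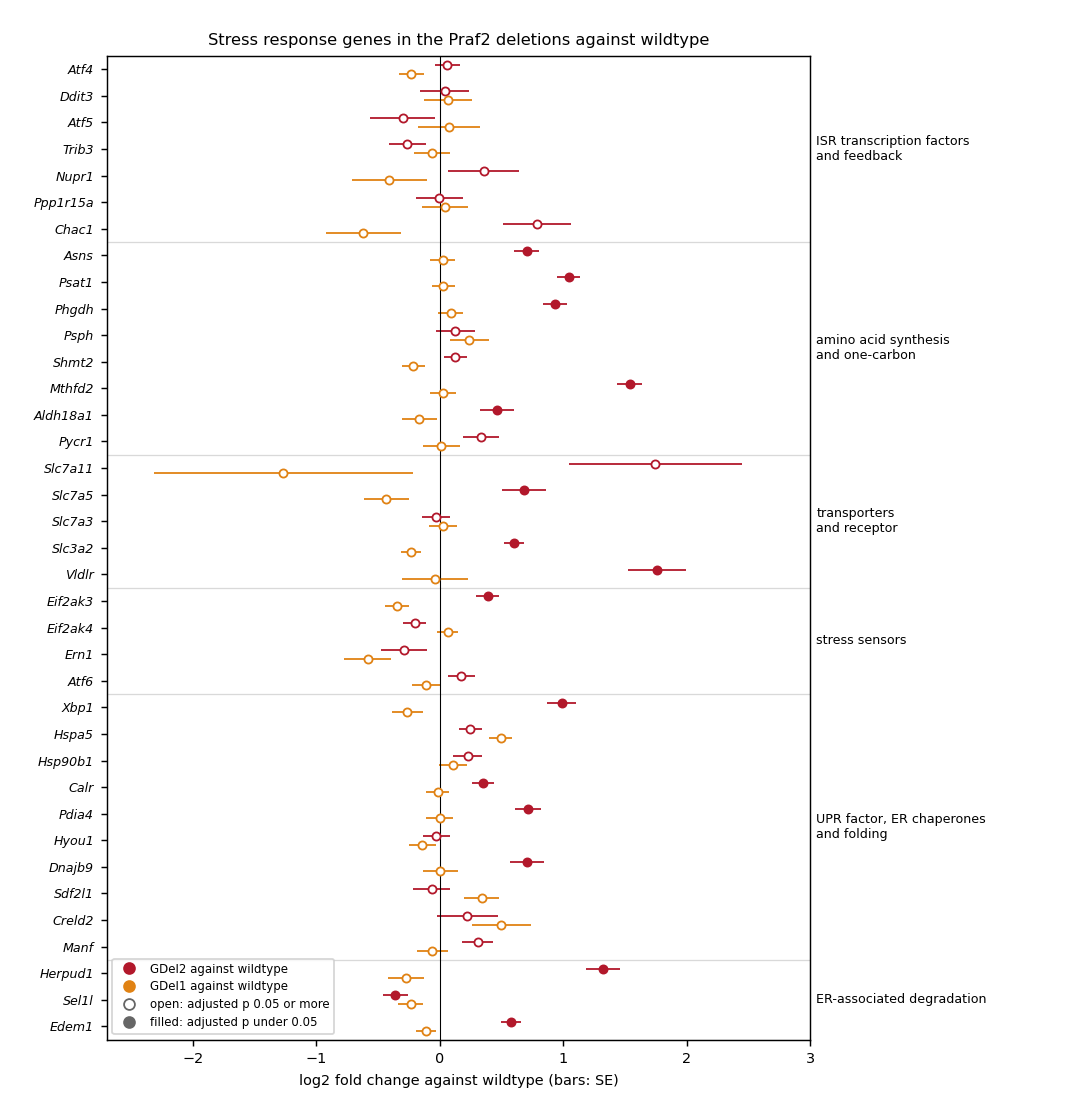
Log2 fold change against WT (bars are the SE) for the 37 genes that passed the filter, in GDel2 and in GDel1, grouped by role. Filled points passed an adjusted p of 0.05. All filled points belong to GDel2, 15 to the right of 0 and Sel1l to the left.

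Among the transcription factors and feedback genes, 0 of 7 tested passed in GDel2 against WT in edgeR. Their median log2 fold change was 0.04, and 1 of the 7, Chac1, had an unadjusted p under 0.05, against 6763 of the 15421 genes. Atf4, the central factor, had 215 and 229 CPM in GDel2, 199.9 and 163 CPM in GDel1, and 222, 209 and 206 CPM in WT. GDel2 and WT overlapped, and both GDel1 libraries lay below them. Its log2 fold change was 0.06 ± 0.103 (SE) in GDel2 against WT, with an adjusted p of 0.692 in edgeR, and -0.23 ± 0.104 in GDel1 against WT, with 0.214. Without GDel1 replicate 1, Atf4 passed in GDel1 against WT (log2 -0.38, adjusted p of 0.0236). Ddit3 had 3.16 and 3.40 CPM in GDel2, 3.54 and 3.17 CPM in GDel1, and 3.16, 3.59 and 2.84 CPM in WT. All 3 groups overlapped. Trib3, a pseudokinase that binds ATF4 and is among its targets, had 11.7 and 8.89 CPM in GDel2, 11.0 and 12.4 CPM in GDel1, and 12.0, 12.1 and 12.8 CPM in WT. The GDel2 libraries were below those of WT but did not pass (log2 fold change -0.26 ± 0.149, adjusted p of 0.212 in edgeR).

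Chac1, which degrades glutathione and is induced through ATF4, had 4.42 and 4.34 CPM in GDel2, 1.05 and 2.13 CPM in GDel1, and 3.02, 2.16 and 2.47 CPM in WT. Every GDel2 library was above every library of GDel1 and WT, and the GDel1 libraries were below those of WT. Chac1 rose 2.65-fold in GDel2 against GDel1 (log2 1.40 ± 0.32, adjusted p of 0.0122 in edgeR). Against WT it had log2 0.78 ± 0.275 (adjusted p of 0.0567), and passed without GDel1 replicate 1 (0.0128) or GDel1 replicate 2 (0.0136). The GDel2 against GDel1 call was lost without GDel2 replicate 1 (0.0607) or without GDel2 replicate 2 (0.0543). Ppp1r15a, the regulatory subunit of the eIF2 phosphatase, Atf5 and Nupr1 passed in no contrast of the fit to all 7 libraries, with log2 fold changes of 0.00, -0.30 and 0.35 in GDel2 against WT. Without GDel2 replicate 1, Atf5 was called lower in GDel2 against WT (log2 -0.86, adjusted p of 0.0406 in edgeR) and against GDel1 (log2 -0.94, 0.0455). The transcription factor genes Atf3 (6 and 9 counts in GDel2, 3 and 3 in GDel1, 1, 5 and 3 in WT) and Cebpb (3 and 3 counts in GDel2, 1 and 2 in GDel1, 3, 5 and 1 in WT) were too low to test.

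The 8 enzymes of amino acid synthesis and one-carbon metabolism had a median log2 fold change of 0.58 in GDel2 against WT. Mthfd2 (ENSMUSG00000005667, chr6:83305704-83326011), the mitochondrial folate enzyme that oxidises one-carbon units, had 98.8 and 105 CPM in GDel2, 32.3 and 39.1 CPM in GDel1, and 33.9, 34.9 and 36.5 CPM in WT. The GDel2 libraries stood far above the rest, and GDel1 and WT overlapped. It rose 2.90-fold in GDel2 against WT (log2 1.54 ± 0.102, adjusted p of 2.84e-05 in edgeR) and 2.85-fold against GDel1 (7.24e-05).

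The enzymes that make serine are Phgdh, Psat1 and Psph, in the order of the pathway. Phgdh (chr3:98313171-98339969) had 68.2 and 69.9 CPM in GDel2, 37.8 and 39.2 CPM in GDel1, and 33.2, 35.3 and 39.9 CPM in WT. Psat1 (chr19:15905123-15925059) had 426 and 483 CPM in GDel2, 238 and 213 CPM in GDel1, and 216, 225 and 221 CPM in WT. For both genes the GDel2 libraries lay above all others, and GDel1 overlapped WT. Phgdh rose 1.91-fold (log2 0.93 ± 0.0987, adjusted p of 0.000243 in edgeR) and Psat1 2.06-fold (log2 1.04 ± 0.0913, 0.000102) in GDel2 against WT. Psph, the last step, had 11.8 and 15.3 CPM in GDel2, 13.1 and 16.0 CPM in GDel1, and 11.0, 12.9 and 13.2 CPM in WT, so that all groups overlapped. Its log2 fold change in GDel2 against WT was 0.13 ± 0.16. In GDel2 against GDel1 it was -0.11 in edgeR, but Psph was called higher there with limma on log2(TPM + 1) (0.89, adjusted p of 0.0161).

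Asns (chr6:7675165-7693209) had 785 and 864 CPM in GDel2, 562 and 467 CPM in GDel1, and 501, 524 and 494 CPM in WT. GDel2 lay above the other groups, which overlapped. It rose 1.63-fold in GDel2 against WT (log2 0.70 ± 0.103, adjusted p of 0.00117 in edgeR), a call that ended with limma on log2(TPM + 1). Aldh18a1, the first enzyme of proline synthesis from glutamate, had 53.4 and 49.1 CPM in GDel2, 27.1 and 38.7 CPM in GDel1, and 37.0, 36.0 and 38.4 CPM in WT. GDel2 was above both groups, and GDel1 was split on either side of WT. Its rise in GDel2 against WT (log2 0.46 ± 0.139, adjusted p of 0.0319 in edgeR) was lost without GDel2 replicate 1 (0.176), GDel2 replicate 2 (0.0919) or WT replicate 1, 2 or 3 (0.0892, 0.103 and 0.0777).

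Shmt2, which passes serine carbon to folate in mitochondria, had 158 and 137 CPM in GDel2, 110.0 and 123 CPM in GDel1, and 133, 139 and 134 CPM in WT. GDel2 overlapped WT, and GDel1 was below both. It rose in GDel2 against GDel1 (log2 0.34 ± 0.103, adjusted p of 0.0379 in edgeR), and this call was lost without GDel1 replicate 1 (0.0837), GDel2 replicate 1 (0.211) or WT replicate 1, 2 or 3 (0.0762, 0.0788 and 0.0755), and with DESeq2 (0.0532). Pycr1, the last enzyme of proline synthesis, had 26.1 and 28.3 CPM in GDel2, 24.2 and 19.6 CPM in GDel1, and 18.0, 23.5 and 23.2 CPM in WT. It passed in no contrast of the fit to all 7 libraries. In GDel2 against GDel1 Pycr1 was called higher without GDel1 replicate 1 (log2 0.47, adjusted p of 0.0491 in edgeR) and with limma on log2(TPM + 1) (0.59, 0.0269).

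Of the 5 transporters and receptor genes, 3 rose in GDel2 against WT. Slc3a2 and Slc7a5 encode the heavy and light chains of a carrier for large neutral amino acids. Slc3a2 had 186 and 175 CPM in GDel2, 105 and 97.6 CPM in GDel1, and 119, 119 and 119 CPM in WT. The groups did not overlap, with GDel2 highest and GDel1 lowest. Slc3a2 rose 1.52-fold in GDel2 against WT (log2 0.60 ± 0.0794, adjusted p of 0.000725 in edgeR), a call that ended with limma on log2(TPM + 1).

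Slc7a5 had 347 and 238 CPM in GDel2, 113 and 157 CPM in GDel1, and 176, 187 and 184 CPM in WT. The order of the groups was the same, but the GDel2 libraries differed from each other by more than WT did from GDel1. It rose 1.60-fold in GDel2 against WT (log2 0.68 ± 0.178, adjusted p of 0.0209 in edgeR). Without GDel2 replicate 1 the log2 fold change was 0.38 (adjusted p of 0.17), and without WT replicate 1, 2 or 3 the adjusted p was 0.0644, 0.054 and 0.0604.

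Vldlr (chr19:27216480-27254231), a lipoprotein receptor, had 4.81 and 7.66 CPM in GDel2, 1.69 and 1.87 CPM in GDel1, and 1.77, 1.86 and 1.89 CPM in WT. Both GDel2 libraries were above the tight cluster of the other 5. It rose 3.39-fold in GDel2 against WT (log2 1.76 ± 0.236, adjusted p of 0.000775 in edgeR). Slc7a11, the cystine and glutamate exchanger, had 11 and 11 counts in GDel2, 2 and 1 counts in GDel1, and 0, 5 and 7 counts in WT. The ratio of summed CPM in GDel2 over GDel1 was 8.75 (95% exact interval 2.63 to 45.7, counting error only), and over WT 3.38 (1.60 to 7.48). Slc7a11 passed the filter on low counts through GDel2 alone. Its edgeR call in GDel2 against GDel1 was also made with no such filter. The call was kept in only 2 of 7 fits without 1 library and 5 of 11 other alternatives. It was lost with DESeq2, with scaling to total counts and with limma on log2(TPM + 1). The fits that lost it also include those without WT replicate 2 or 3, GDel1 replicate 2, or either GDel2 library. Slc7a3, a carrier of cationic amino acids, overlapped in all groups, with 196 and 212 CPM in GDel2, 237 and 187 CPM in GDel1, and 202, 222 and 202 CPM in WT.

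**Figure D3:**
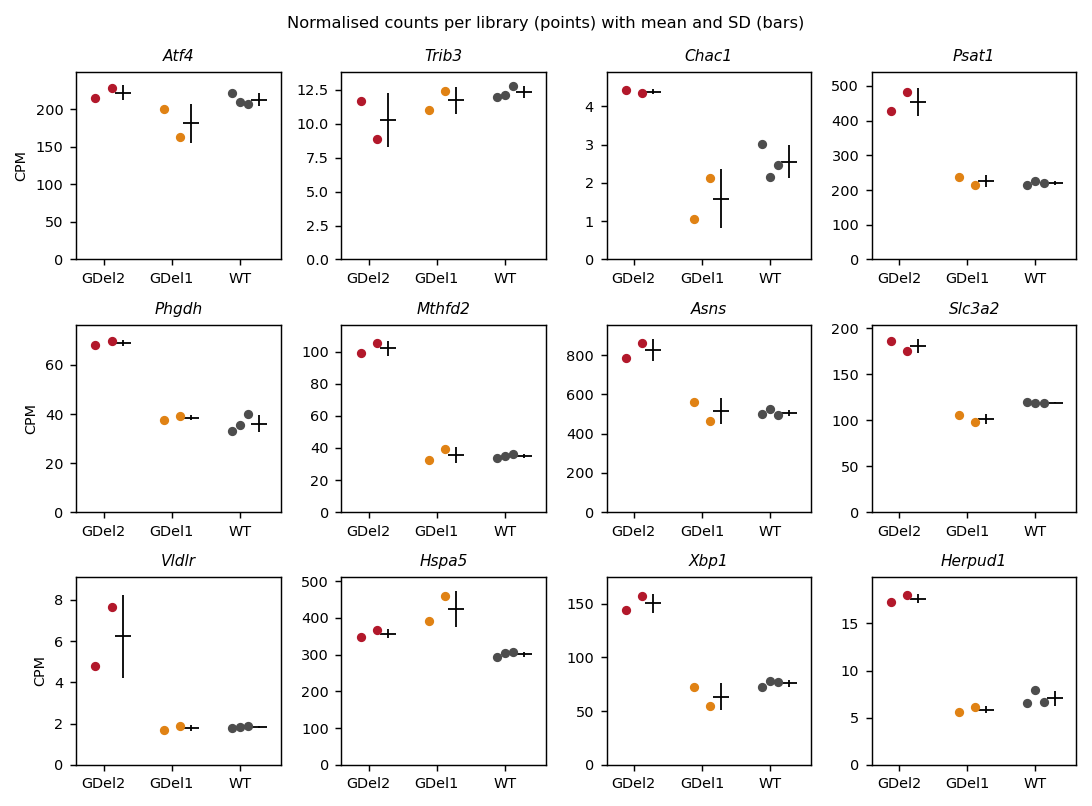
CPM in each library (points) with group means and SD (bars) for 12 of the genes, with GDel2, GDel1 and WT from left to right. In 9 panels, those of Chac1, Psat1, Phgdh, Mthfd2, Asns, Slc3a2, Vldlr, Xbp1 and Herpud1, both GDel2 points lie above all others. Atf4 and Trib3 show no such gap, and Hspa5 is highest in GDel1. Of all genes tested, 32.2% had both GDel2 libraries above WT, and 29.9% had them above GDel1.

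Of the 4 sensors, the PERK gene Eif2ak3 passed. It had 49.95 and 44.7 CPM in GDel2, 29.5 and 27.5 CPM in GDel1, and 38.2, 35.6 and 34.9 CPM in WT, with no overlap between any 2 groups. Eif2ak3 rose 1.31-fold in GDel2 against WT (log2 0.39 ± 0.0957, adjusted p of 0.0147 in edgeR) and 1.66-fold against GDel1 (log2 0.73 ± 0.107, 0.00157). The call against WT was lost without GDel2 replicate 1 (0.0875), WT replicate 2 (0.0639) or WT replicate 3 (0.0648). The GCN2 gene Eif2ak4 had 30.5 and 28.5 CPM in GDel2, 34.5 and 36.4 CPM in GDel1, and 33.9, 34.8 and 33.2 CPM in WT, with log2 -0.21 ± 0.0903 in GDel2 against WT (adjusted p of 0.114 in edgeR). The IRE1 gene Ern1 had 18.1 and 14.6 CPM in GDel2, 10.1 and 16.2 CPM in GDel1, and 19.4, 19.9 and 20.6 CPM in WT. All 4 deletion libraries of Ern1 were below WT, as they were for 12% of all genes. The adjusted p of Ern1 was 0.271 in GDel2 and 0.108 in GDel1 against WT in edgeR. Atf6 had 46.5 and 49.7 CPM in GDel2, 41.9 and 37.0 CPM in GDel1, and 47.5, 41.4 and 39.1 CPM in WT. It passed in no contrast of the fit to all 7 libraries, and was called higher in GDel2 against GDel1 without GDel1 replicate 1 (log2 0.38, adjusted p of 0.0492 in edgeR). Without GDel1 replicate 2, Ern1 was called higher in GDel2 against GDel1 (log2 0.68, 0.0147).

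Xbp1 (chr11:5520641-5525993), whose spliced transcript encodes a transcription factor of the UPR, had 144 and 157 CPM in GDel2, 72.2 and 54.6 CPM in GDel1, and 72.2, 78.2 and 77.2 CPM in WT. The GDel2 libraries were well above the others, while GDel1 replicate 1 equalled the lowest WT library. Xbp1 rose 1.98-fold in GDel2 against WT (log2 0.99 ± 0.119, adjusted p of 0.00045 in edgeR) and 2.38-fold against GDel1 (0.00035). Gene-level counts do not separate its spliced and unspliced forms.

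Hspa5 (chr2:34772090-34776529) had 348 and 367 CPM in GDel2, 391 and 459 CPM in GDel1, and 294, 304 and 307 CPM in WT. It was the 1 member of 37 with all 4 deletion libraries above WT, against 9.73% of all genes, and GDel1 was the highest group. Its log2 fold change was 0.25 ± 0.0933 in GDel2 against WT (adjusted p of 0.0738 in edgeR, 0.0158 without GDel1 replicate 1 and 0.0151 without GDel1 replicate 2) and 0.49 ± 0.0928 in GDel1 against WT (0.0528). The GDel1 difference passed with DESeq2 (0.00135) and in edgeR without GDel1 replicate 1 (0.00137) or GDel1 replicate 2 (0.0386). On the log2(TPM + 1) scale it was 0.05, where the median of all genes was -0.30.

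Of the 10 genes of this group, 4 rose in GDel2 against WT. They were Xbp1, Pdia4, Dnajb9 and Calr. Pdia4, a disulfide isomerase, had 338 and 367 CPM in GDel2, 241 and 189 CPM in GDel1, and 212, 218 and 215 CPM in WT. Dnajb9, a cochaperone of BiP, had 21.7 and 27.1 CPM in GDel2, 16.4 and 13.6 CPM in GDel1, and 13.8, 15.6 and 15.3 CPM in WT. Calr, a chaperone of glycoproteins that binds calcium, had 524 and 546 CPM in GDel2, 443 and 385 CPM in GDel1, and 435, 422 and 402 CPM in WT. In each of these 3 genes GDel2 lay above the other groups, and GDel1 overlapped WT. The log2 fold changes in GDel2 against WT were 0.71 ± 0.109 for Pdia4 (adjusted p of 0.00146 in edgeR), 0.71 ± 0.138 for Dnajb9 (0.00484) and 0.35 ± 0.0923 for Calr (0.0191). The Dnajb9 call was lost without GDel2 replicate 2 (0.0576), and that of Calr without GDel2 replicate 2 (0.112) or WT replicate 1, 2 or 3 (0.0556, 0.0746 and 0.0832).

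The chaperones Hsp90b1 (log2 fold change 0.22 in GDel2 against WT), Hyou1 (-0.03) and Sdf2l1 (-0.06) and the secreted factors Creld2 (0.22) and Manf (0.31) did not pass. Without GDel1 replicate 1 or 2, Hsp90b1 (adjusted p of 0.0400 and 0.0389 in edgeR) and Manf (0.00643 and 0.00594) were called higher in GDel2 against WT. Sdf2l1 had 7.58 and 7.95 CPM in GDel2, 10.1 and 10.5 CPM in GDel1, and 7.58, 9.28 and 7.51 CPM in WT. It was, with Hspa5, 1 of the 2 members of 37 whose GDel1 libraries were both above WT, against 20.9% of all genes. For 10 of the 37, both GDel1 libraries were below WT, against 22.6% of all genes.

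In ER-associated degradation, Herpud1 and Edem1 rose and Sel1l fell in GDel2 against WT. Herpud1 (chr8:94386429-94395371), a membrane protein of the retrotranslocation complex, had 17.3 and 18.0 CPM in GDel2, 5.55 and 6.09 CPM in GDel1, and 6.55, 7.92 and 6.67 CPM in WT. The 3 groups did not overlap, and GDel1 was the lowest. Herpud1 rose 2.50-fold in GDel2 against WT (log2 1.32 ± 0.135, adjusted p of 0.000207 in edgeR) and 3.02-fold against GDel1 (0.000225). Edem1, a lectin that trims mannose from misfolded glycoproteins, had 97.1 and 95.5 CPM in GDel2, 59.6 and 59.9 CPM in GDel1, and 63.8, 67.5 and 62.7 CPM in WT. It showed the same order of groups (log2 0.57 ± 0.0797 in GDel2 against WT, adjusted p of 0.000916 in edgeR).

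Sel1l, the partner of the ubiquitin ligase HRD1, had 57.6 and 47.8 CPM in GDel2, 56.2 and 58.5 CPM in GDel1, and 65.7, 69.5 and 67.6 CPM in WT. All 4 deletion libraries were below WT, which held for 2 of the 37 members (Sel1l and Ern1) and 12% of all genes. Sel1l fell in GDel2 against WT (log2 -0.36 ± 0.101, adjusted p of 0.0246 in edgeR). Without GDel2 replicate 2 its log2 fold change was -0.23. The call was also lost without WT replicate 1 (0.0623), 2 (0.0908) or 3 (0.0747).

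In GDel1 against WT no member passed in edgeR, with 8 of 37 at an unadjusted p under 0.05, against 3776 of the 15421 genes, and Hspa5 lowest at an adjusted p of 0.0528. DESeq2 called Hspa5 alone, and limma on log2(TPM + 1) called 11 members, all lower, on a scale where all genes had a median of -0.30. Without GDel1 replicate 1, edgeR called 5 members (Creld2 and Hspa5 higher, Atf4, Eif2ak3 and Xbp1 lower), and without GDel1 replicate 2 it called 3 (Hspa5 higher, Aldh18a1 and Ern1 lower). The difference between the deletions was tested directly. The 15 members higher in GDel2 against WT were all higher in GDel2 against GDel1 too, together with Chac1, Shmt2 and Slc7a11. Of these, Slc7a11 passed the filter on low counts through GDel2 alone. Both contrasts use the same GDel2 libraries, so the overlap between them is not separate support. The share of all genes that overlap in this way was not worked out. Without GDel1 replicate 1, edgeR also called Atf4, Atf6, Manf and Pycr1 higher and Creld2 and Hspa5 lower in GDel2 against GDel1, 23 members in all, and lost Shmt2. In GDel2 against WT limma on log2(TPM + 1) called 9 members and lost Aldh18a1, Asns, Calr, Eif2ak3, Sel1l, Slc3a2 and Slc7a5. With all 4 deletion libraries as 1 group against WT, where the spread between GDel2 and GDel1 counts as error, edgeR called 0 of 37 members and 0 of 15421 genes. At unadjusted p under 0.05 there were 5 members and 2930 genes, and DESeq2 called 1 member (Hspa5) and 969 genes, and limma on log2(TPM + 1) 0 members and 2 genes.

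Genes near a member were also higher in GDel2 for many members. Each member was set beside the median log2 fold change of the tested genes within 5 Mb of it, a distance chosen after the data were seen. Of the 15 members that rose in GDel2 against WT, 10 had a neighbour median over 0.3, and 6 of the 15 lay within 0.2 of that median. No other of the 37 tested members had a neighbour median over 0.3. The share of all tested genes with such neighbours that rose was not worked out, nor the share within 0.2 of their neighbours. These counts therefore do not set the members apart from other genes. Pdia4 had 0.71 with neighbours at 0.78, Edem1 0.57 with 0.64, Eif2ak3 0.39 with 0.52, and Calr 0.35 with 0.46. Dnajb9 had 0.71 with 11 neighbours at 0.64 (0.30 within 10 Mb), and Asns 0.70 with 0.54. These 6 genes therefore changed by about as much as the median of the genes within 5 Mb. For Dnajb9 this did not hold within 10 Mb.

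Mthfd2 (log2 1.54, neighbours 0.56), Herpud1 (1.32, 0.31), Xbp1 (0.99, 0.35) and Slc7a5 (0.68, 0.40) lay above raised neighbours. The other 5 rose among neighbours that did not: Vldlr (1.76, neighbours -0.04), Psat1 (1.04, -0.15), Phgdh (0.93, -0.08), Slc3a2 (0.60, -0.20) and Aldh18a1 (0.46, 0.01). These 5 were the only members called higher where the neighbour median was 0.3 or less. Of all genes tested, whatever their neighbours, 17.4% were called higher. All 8 members on chromosomes 6 and 8 rose in GDel2 against WT, where 51.1% of the 1371 tested genes placed there were called higher. Of the 29 tested members on other chromosomes 7 rose and 1 fell, against 14.8% of 12265 genes called higher. In GDel2 against GDel1 the same 8 members rose, where 47.2% of genes on these chromosomes were called higher. Of the other 29, 10 rose, against 12.1% of genes. These 10 include Slc7a11, which passed the filter on low counts only through GDel2, where it is high. The part of the neighbourhood in these results was not tested.

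**Figure D4:**
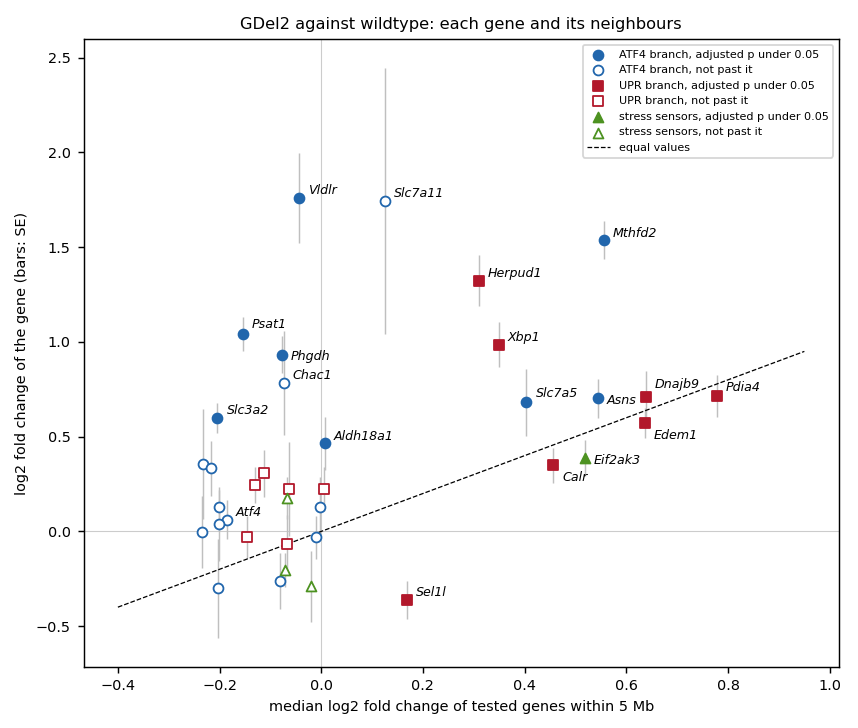
Log2 fold change of each tested member in GDel2 against WT (bars are the SE) against the median of the tested genes within 5 Mb of it. Filled symbols passed an adjusted p of 0.05, and the dashed line marks equal values. Pdia4, Edem1, Dnajb9, Asns, Calr and Eif2ak3 lie along the line at the right, and Vldlr, Psat1, Phgdh and Slc3a2 lie high on the left.

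Other genes of the pathways, taken from separate lists, moved in both directions. In GDel2 against WT, where 33.1% of all genes were called, the share called was 50% of the other ATF4 targets, 55% of the tRNA synthetases, 28.6% of the eIF2 genes, 31.2% of the folding genes, 27.8% of the degradation genes and 44.4% of the heat shock genes. Of 32 other targets of ATF4 tested, 9 rose and 7 fell in GDel2 against WT, with a median log2 fold change of 0.19. The amino acid carrier gene Slc43a1 had 10.3 and 10.8 CPM in GDel2, 1.53 and 1.93 CPM in GDel1, and 2.36, 2.66 and 2.31 CPM in WT. GDel2 stood apart, and GDel1 was below WT. Slc43a1 changed by log2 2.10 in GDel2 against WT (adjusted p of 7.12e-05 in edgeR), followed by the secreted glycoprotein gene Stc2 (1.24, neighbours 0.63) and the histone demethylase gene Kdm7a (1.03, neighbours 0.21). Of 20 cytosolic aminoacyl-tRNA synthetase genes, which charge tRNA with amino acids and include ATF4 targets, 10 rose and Qars fell. The largest rises were those of Rars (log2 0.81, neighbours 0.56), Gars (0.70, 0.40) and Kars (0.68, 0.50).

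Among 14 genes of eIF2, its kinases, its phosphatase and its exchange factor eIF2B, 2 rose (Eif2b3 and Impact) and 2 fell (Eif2b5 and Eif2s2). Eif2b5, the catalytic subunit of eIF2B, had 141 and 142 CPM in GDel2, 299 and 316 CPM in GDel1, and 245, 258 and 248 CPM in WT. The GDel2 libraries were lowest and those of GDel1 highest, without overlap. Its log2 fold change was -0.82 in GDel2 against WT (adjusted p of 0.000171 in edgeR) and -1.12 in GDel2 against GDel1 (7.78e-05), among neighbours at -0.07 in GDel2 against WT.

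Of 32 other UPR and ER folding genes 9 rose and 1 fell, led by Sil1 (log2 1.03, neighbours -0.04), the signal peptidase subunit gene Spcs3 (1.01, neighbours 0.72) and the disulfide isomerase gene Txndc5 (0.95, neighbours 0.01). Of 18 other genes of ER-associated degradation 4 rose and 1 fell. Among them Erlec1 rose by log2 0.53 (neighbours 0.65), and Derl3 fell by 1.05 on the log2 scale. Of 9 heat shock genes of the cytosol 2 rose and 2 fell, among them Hspb1 at log2 -1.40 and Bag3 at -0.80. None of these lists had a gene past the threshold in GDel1 against WT in edgeR. Counts at unadjusted p under 0.05 there were 7 of 32 other ATF4 targets, 10 of 20 synthetases, 6 of 14 eIF2 genes, 10 of 32 folding genes, 5 of 18 degradation genes and 3 of 9 heat shock genes, against 3776 of the 15421 genes.

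Markers of a rare state of ES cells that resembles the 2-cell embryo moved with GDel2. Of the 10 markers 7 could be tested. Zscan4d, Usp17la, Usp17lb, Gm8300 and Gm5662 passed the filter through GDel2 alone. They were thus kept for being high in GDel2, and their calls carry no weight. The other tested markers, Zscan4c and Zscan4f, rose in GDel2 against WT, where 17.4% of all genes rose. The list summed to 22.0 and 23.1 CPM in GDel2, 2.09 and 1.41 CPM in GDel1, and 2.87, 2.85 and 3.36 CPM in WT. Tcstv1 and Tcstv3 had 0 counts in every GDel1 and WT library. Of the 12 ES cell markers, Nanog and Zfp42 rose and Dppa5a, Esrrb, Sox2 and Tfcp2l1 fell in GDel2 against WT. Among all genes 17.4% rose and 15.6% fell. The part of these markers in the stress gene results was not tested.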

How the data were processed

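RNA of 7 libraries of mouse ES cells was measured (GDel2, 2 libraries; GDel1, 2; WT, 3). Each library has 1 deposited table of gene results. Its expected counts were estimated by the authors' software per gene and not scaled for depth, per the file headers, and its deposited TPM values are scaled for effective length. The deposited FPKM values were not used. The submitters' processing notes list Bowtie2, STAR, RSEM, HiC-Pro and deepTools with no versions, and mm10. The annotation release and the strand used for counting were not given in the sources used here.

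Of 55487 gene identifiers, 55141 had a symbol and 37984 a position in the RefSeq table of GRCm38.p6. Expected counts were rounded. Genes were kept by filterByExpr (minimum count 10, minimum total 15), which left 15421 genes with 99.9% of the counts. Slc7a11 passed that filter through GDel2 alone. The main test was the robust quasi-likelihood F test of edgeR 4.0.16 in R 4.3.3 with TMM scaling and Benjamini-Hochberg adjustment over all genes kept, with an adjusted p of 0.05 as threshold. A fit with all 3 groups gave the contrasts GDel2 against WT, GDel1 against WT and GDel2 against GDel1. Since both deletions share a genotype label, a second fit compared their 4 libraries together with WT. An SE of a log2 fold change is its size divided by the root of its F value. Alternatives used DESeq2 1.42.0, limma 3.58.1 on log2(TPM + 1) and log2(TPM + 0.1), where fold changes of low genes are understated, other scalings and filters, and fits without each library.

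The 39 genes, the other lists and the rule for named genes were chosen with earlier results of these data known, so no p-value was made for a list. The rule prints every library's value for Atf4, Ddit3, Chac1, Trib3, Asns, Hspa5, Xbp1 and every member past the threshold, and names up to 3 genes per other list and contrast by size of change. The result for a gene of the other lists is not reported here. Library values of Psph, Pycr1, Slc7a3, Sdf2l1, Eif2ak4, Ern1 and Atf6 were added after their values were seen. Intervals are exact at 95% and cover counting error only. Same-numbered replicates did not deviate together, so numbers were not used to pair libraries.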

Additional observations from a re-analysis of the deposited data

Results flagged for a closer look

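For 18 of the 37 tested genes the change against WT differed between GDel2 and GDel1, by the contrast of GDel2 against GDel1 in edgeR (adjusted p under 0.05 over all genes). All 18 were higher in GDel2, where 14.8% of all genes were. The log2 difference was 1.51 for Mthfd2, 1.01 for Psat1, 0.84 for Phgdh, 0.68 for Asns, 0.63 for Aldh18a1 and 0.34 for Shmt2 among the enzymes. Among the transporters and receptor it was 1.80 for Vldlr, 1.11 for Slc7a5, 0.83 for Slc3a2 and 3.01 for Slc7a11. The last rests on 22 counts in GDel2 against 3 in GDel1, and Slc7a11 passed the filter on low counts by GDel2 alone. Its call was kept in only 2 of 7 fits without 1 library and 5 of 11 other alternatives, and was lost with DESeq2. The log2 difference was 1.40 for Chac1, 0.73 for the sensor gene Eif2ak3 and 1.25 for Xbp1. Among ER folding and degradation genes it was 1.59 for Herpud1, 0.72 for Pdia4, 0.71 for Dnajb9, 0.69 for Edem1 and 0.37 for Calr. The calls on Chac1 and Shmt2 were lost in fits without 1 library, as given with their values. That on Aldh18a1 was lost without GDel2 replicate 1 (adjusted p of 0.106 in edgeR) or GDel2 replicate 2 (0.05004); its difference was 0.40 without GDel1 replicate 1. Dnajb9 was lost without GDel2 replicate 2 (0.0709), and Calr without GDel1 replicate 2 (0.0599), GDel2 replicate 1 (0.0607), GDel2 replicate 2 (0.112) or WT replicate 1, 2 or 3 (0.0592, 0.0662 and 0.0554). None of the 37 had 1 of the 4 deletion libraries standing apart from the other 3 by Dixon's criterion. The 4 libraries are 2 of each deletion, so a gap between the deletions widens the range. For genes that differ between the deletions, the criterion can then miss a replicate that stands apart from its pair.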

How the results depend on the processing

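With 2 or 3 libraries a group, and replicates of GDel1 far apart, a change that did not pass is not shown to be absent, and genes under about 10 counts cannot be tested. Psat1, Phgdh, Mthfd2, Vldlr, Xbp1, Pdia4, Herpud1 and Edem1 remained higher in GDel2 against WT under all 7 fits without 1 library and all 12 other alternatives. Among the members called or named by the rule, where the direction of a gene's change differed between settings (42 results of single genes and settings), it passed the test in neither. This does not hold for Psph and Slc7a3. In GDel1 against WT Psph had log2 0.24 in edgeR and -0.86 with limma on log2(TPM + 1) (adjusted p of 0.0242). Slc7a3 had 0.02 in edgeR and -0.51 with limma on log2(TPM + 0.1) (0.0498). The neighbour distances of 2 and 10 Mb were chosen after seeing the data.

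For all genes tested, DESeq2 called 993 in GDel1 against WT (58 in edgeR) and 969 in the deletion group (0). In GDel1 against WT the count was 102 with upper-quartile scaling, 14 with scaling to total counts, 2357 with no filter, 17 with a stricter filter, 33 without robust estimation, 12 with only the groups compared, and 4 to 2034 without 1 library. It was 3250 with limma on log2(TPM + 1) and 3531 on log2(TPM + 0.1), 3220 and 3498 of them lower, where the median of all genes was -0.30 and -0.44. In GDel2 against WT (5099) these limma fits called 2604 and 2492, and fits without 1 library 2643 to 6578. In GDel2 against GDel1 (4268) the count was 2153 with only the groups compared and 2602 to 5617 without 1 library. In the deletion group it was 1 with no filter and 2 with limma on log2(TPM + 1), and averaging the deletions in the 3-group fit called 3149. Without both libraries of high mitochondrial share, GDel1 replicate 1 and GDel2 replicate 2, 4262 genes were called in GDel1 against WT.

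Of the members, GDel1 against WT (0 called) had 1 with DESeq2, 4 with no filter, 11 and 14 with the 2 limma fits, 0 to 5 without 1 library, and 10 without both libraries of high mitochondrial share. GDel2 against WT (16) had 9 with each limma fit, and 11 to 20 without 1 library. The deletion group (0) had 1 with DESeq2 and 11 from averaging the deletions.

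The median log2 fold change of the ATF4 branch in GDel1 against WT (-0.01) was -0.087 with scaling to total counts, -0.49 and -0.51 with limma, and -0.13 to -0.0077 without 1 library (-0.062 without both libraries of high mitochondrial share). That of the UPR branch (-0.02) was -0.10, -0.50 and -0.50, and -0.12 to 0.079 (-0.10). In GDel2 against WT the ATF4 branch (0.41) had 0.24 and 0.31 with limma, 0.34 to 0.52 without 1 library and 0.46 without both libraries. In GDel2 against GDel1 it (0.66) had 0.50 with a stricter filter, 0.91 with limma on log2(TPM + 0.1), 0.49 to 0.66 without 1 library and 0.50 without both; the UPR branch (0.37) had 0.72 and 0.73 with limma and 0.25 to 0.47 without 1 library. In the deletion group the ATF4 branch (0.18) had 0.13 with scaling to total counts, -0.14 and -0.20 with limma, 0.062 to 0.27 without 1 library, 0.25 without both and 0.14 from averaging. The UPR branch (0.27) had 0.047 and 0.042 with limma and 0.20 to 0.37 without 1 library. The causes were not tested.

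Replicate numbers did not pair the libraries: same-numbered deviations correlated at -0.21 between GDel1 and GDel2, at 0.10 and -0.01 between GDel1 and WT, and at -0.11 and -0.09 between GDel2 and WT. With the replicate block, 10 members and 2296 genes were called in GDel2 against WT, 12 members and 2235 genes in GDel2 against GDel1, and 0 members and 1 gene in GDel1 against WT. The median of the ATF4 branch in GDel2 against WT was 0.53 with the block.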
